A study of Mus musculus with 8 samples.

Results

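The 194 DNA sequences described here are the designed RUNX family of an oligonucleotide array: every printed sequence whose name contains RUNX, 1000 spots of the 175866 spots with a sequence, and 194 of the 122095 different sequences on the array. They carry 100 site names, each with a version marked as reversed, and 188 sequences were printed in 5 spots and 6 in 10 spots. The members were chosen by a rule on the name alone, which used no measured value, although earlier results of these data were known. The arrays were stained with a fluorescent readout for 2 antibodies that the labels name as mouse antibodies, with mouse as the organism; no mouse DNA or tissue was measured. The antibody against cyclobutane pyrimidine dimers (CPDs) was used at a dilution of 1:400, and the antibody against 6-4 photoproducts (6-4PPs) at 1:80. Each antibody was applied to 2 arrays labelled as UV and 2 labelled as non-UV, giving 4 groups of 2 arrays, and the design text gives the purpose as measuring antibody signal per short sequence. The sources used here do not give the UV dose, the staining steps, how the probes were made double-stranded or which end lies at the surface. No label says that the 2 arrays of a group came from separate experiments, so the p-values measure only the spread between arrays, which may be technical.

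RUNX proteins are transcription factors whose runt domain binds the short motif TGYGGT (Y is C or T), and they are known as regulators of blood, bone and neuronal development. UV light can join adjacent pyrimidines of one DNA strand into a CPD, a ring between both bases, or into a 6-4PP, a single bond that twists the helix more strongly. Either lesion therefore requires a dipyrimidine step (TT, TC, CT or CC) on one of the strands. The RUNX core itself holds no such step on the TGYGGT strand and a CC step on the ACCRCA strand (R is A or G), so within this family further steps come only from the letters beside the core.

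Each member is 60 bases long. All members share the same 43 bases from base 18 to the 3′ end, and this stretch holds 0 dipyrimidine steps on either strand, so every step lies in the site and its flanks. Counted over both strands, 60 members hold 2 steps, 90 hold 3 and 44 hold 4, while the median over all sequences of the array is 5. The sequences below are those on which the results turn: the brightest and dimmest sites, and pairs that differ by 1 letter or by orientation. They are given 5′ to 3′ as the deposited file lists them (the listed strand), with the 6-base core in capitals. For all but the first, the first 20 of the 60 bases are shown.
RUNX_25, all 60 bases: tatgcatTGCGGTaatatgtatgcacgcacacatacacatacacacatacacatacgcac
RUNX_25_rev: tatgcattACCGCAatatgt
RUNX_43: tatgcacTGCGGTaatatgt
RUNX_43_rev: tatgcattACCGCAgtatgt
RUNX_13_rev: tatgcatgACCGCAgtatgt
RUNX_36_rev: gtatgcatTGCGGTatatgt
RUNX_28_rev: gtatgcgtTGCGGTatatgt
RUNX_54_rev: gtatgcacTGCGGTatatgt
RUNX_48_rev: tatgcactTGCGGTgtatgt
RUNX_84: tatgcattTGCGGTgtatgt
RUNX_6_rev: tatgcatTGCGGTtatatgt
RUNX_31_rev: tatgcatTGTGGTtatatgt
RUNX_26_rev: atgcaTGCGGTtacgtatgt
RUNX_26: gtatgcgtaACCGCAtatgt
RUNX_73_rev: atgcaTGCGGTcacgtatgt
RUNX_67_rev: tatgcaTGCGGTttatatgt
RUNX_67: tatgcataaACCGCAtatgt
RUNX_82: tatgcatcaACCGCAtatgt
RUNX_82_rev: tatgcaTGCGGTtgatatgt
RUNX_78_rev: tatgcaACCGCAtcgtatgt
RUNX_27_rev: tatgcaACCGCAgcgtatgt
RUNX_38: atgcattTGCGGTcgtatgt
RUNX_91: atgcataTGCGGTcgtatgt
RUNX_44: tatgcaaTGCGGTtgtatgt
RUNX_44_rev: tatgcaACCGCAttgtatgt
RUNX_51_rev: tatgcatcTGCGGTatatgt
RUNX_76_rev: gtatgcgACCGCAtgtatgt

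Read on the strand that carries it, the core was TGCGGT in 159 members, TGTGGT in 27 and CGCGGT in 8. No member held another core. The core lay on the listed strand in 94 members and on the complement in 100. The elements beside the core are named below by 4 letters on the core strand: the left element is the 2 letters before the core with its first 2 letters (ATTG in RUNX_25), and the right element is the last 2 letters of the core with the 2 letters after it (GTAA in RUNX_25). TT steps, summed over both strands, numbered 0 in 45 members, 1 in 86, 2 in 51 and 3 in 12. A TC step was present once in 70 members and at 2 places in 2, a CT step once in 66 and at 2 places in 2, and CC once in 190 and at 2 places in 4.

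Values are adjusted intensities on the linear scale as deposited, with no background taken off. A member's level on an array is the geometric mean over its spots. The 550 sequences of the array with 0 dipyrimidine steps had median levels of 1617 and 1603 on CPD UV arrays 1 and 2 and of 1954 and 1951.5 on 6-4PP UV arrays 1 and 2, the level against which the members can be read. On the non-UV arrays the medians of the family lay between 1049 and 1539 and those of the step-free sequences between 1048 and 1497. Between 4 and 15 of the 1000 family spots per array were over 2-fold brighter than the median of their own sequence. Such spots recurred at the same position on the same-numbered array of the other antibody: 5 on the UV arrays numbered 1, 11 on the UV arrays numbered 2, 3 on the non-UV arrays numbered 1 and 9 on the non-UV arrays numbered 2. They touched 54 members on any array and 25 members on a UV array, and their cause was not tested. For named results that hold such a member, the value from spot medians is given too. As a check inside the files, 38 members were also printed under other names in 86 further spots, which entered no value here. Those spots differed from the family spots by a median of 0.00 and 0.02 log2 units on the CPD UV arrays and 0.04 and -0.01 on the 6-4PP UV arrays. At least 37 of the 38 lay within 2-fold on each of the 8 arrays.

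UV treatment raised CPD staining over most of the family, and the size of the rise went with the TT steps beside the core. Members without any TT stayed near the step-free level, with levels averaged over both UV arrays from 1504 to 2665 and a median of 1794. The medians were 3617 with 1 TT, 5738.5 with 2 and 6243 with 3. Over the whole family the lowest, median and highest levels were 1485, 3756 and 18768 on UV array 1 and 1455, 3452 and 17501 on UV array 2. In 191 of 194 members each UV array exceeded each non-UV array, and in all 194 when spot medians were used.

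For testing, each array was centred on its own median, so an effect is the UV change of a sequence relative to the typical sequence of the array, whose own rise before centring was 1.62 log2 units with the CPD antibody and 2.23 with the 6-4PP antibody. By limma (adjusted p under 0.05 over all 122095 sequences), 83 members rose with CPD, 75 fell and 36 did not pass. That is 81.4% past the threshold either way, beside 79.7% over the whole array (39.5% higher and 40.2% lower). The family's median effect was -0.02, beside -0.03 over all sequences. Without centring 185 members were called higher and 0 lower, beside 92% and 0.00164% of all sequences (0 members lower at an unadjusted p under 0.05 in limma). With quantile normalization the split was 4 higher and 3 lower, beside 5384 and 3047 of all 122095 sequences. None of the 45 members without TT rose after centring, and 42 of them fell, while 39 of 51 with 2 TT steps and 11 of 12 with 3 rose.

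RUNX_25_rev, which carries an ATTG and an ATTA on opposite strands, had the highest CPD effect. It read 18768 and 17501 on the UV arrays and 1208 and 1002 on the non-UV arrays, a mean of 18135 ± 896 (SD, n = 2) against 1105 ± 145.5. Both UV arrays lay far above both non-UV arrays. The rise was 16.5-fold before centring and 2.39 log2 units after it (SE 0.102, limma adjusted p = 1.56e-05). RUNX_6_rev, with ATTG before and GTTA after a TGCGGT core, read 13817 and 12784 on the UV arrays and 1138 and 1051 on the non-UV arrays (centred effect 1.95). Its TGTGGT counterpart RUNX_31_rev read 12687 and 13280.0 on the UV arrays and 1179.6 and 1013 on the non-UV arrays (centred effect 1.92, and 1.87 by spot medians). In both, the UV and non-UV arrays were widely separated. RUNX_45, a TTTG site followed by GTTG, held 2 bright spots. It read 12719.9 and 14431 on the UV arrays and 1248 and 1035 on the non-UV arrays, and 13185 and 10441 on the UV arrays by spot medians. RUNX_25, the other orientation of the brightest site, completed the 5 with 12735 and 11486 on the UV arrays. The largest limma adjusted p among these 5 was 9.47e-05.

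The 5 lowest CPD effects were those of RUNX_91 (-1.85), RUNX_100 (-1.51), RUNX_46 (-1.34), RUNX_88 (-1.32) and RUNX_73_rev (-1.30), none of which holds a TT step. RUNX_91 read 1554 and 1455 on the UV arrays and 1263 and 2360.0 on the non-UV arrays, so its UV and non-UV arrays overlapped. By spot medians it read 1528.5 and 1438 on the UV arrays and 1267 and 1085 on the non-UV arrays, which do not overlap, and its effect by spot medians was -1.31. The other 4 held bright spots as well, and by means over spots the arrays of RUNX_100 and RUNX_46 overlapped too. RUNX_100 had spot medians of 1693 and 1853 on the UV arrays and 1159 and 1091 on the non-UV arrays. The effects by spot medians were smaller in all 5 and still past the threshold, among them RUNX_46 (-1.07), RUNX_88 (-1.24) and RUNX_73_rev (-1.05). The median effect of the 45 members without TT was -1.04 (means over spots), so RUNX_46 and RUNX_73_rev then lay near the typical such member. Their mean levels on the CPD non-UV arrays were 1422 and 1468, beside a median of 1154 for those 45 members. Without CPD UV array 1, RUNX_100 missed the threshold (-1.39, limma adjusted p = 0.0595). These falls are relative to the array median. Before centring the same 5 effects were -0.20, 0.14, 0.31, 0.33 and 0.35, and no adjusted p was under 0.05. RUNX_76_rev, the lowest member on CPD UV array 1, held no bright spot and read 1485 and 1548.5 on the UV arrays and 1200.2 and 987 on the non-UV arrays.

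The 6-4PP antibody stained few RUNX sites strongly. Most members lay far below the typical sequence of the UV arrays, and all but 1 of those that rose carried ATTG, CTTG or ATTA on the listed strand. The exception was RUNX_82, with a TC step after A. The lowest, median and highest levels were 1796, 3022 and 19076 on UV array 1 and 1895, 3029.6 and 21888 on UV array 2, where the median over all sequences was 6628 and 6624. Relative to the array median 26 members rose, 147 fell and 21 did not pass (limma, adjusted p under 0.05). That is 89.2% past the threshold, beside 76.4% over the whole array (36.4% higher and 39.9% lower). The family's median effect was -1.16, beside -0.05 over all sequences. Without centring 187 members were called higher and 0 lower, beside 96% and 0.00164% of all sequences (0 members lower at an unadjusted p under 0.05 in limma). With quantile normalization 1 was higher and 12 were lower, beside 4341 and 2217 of all 122095 sequences. Each UV array exceeded each non-UV array in 188 members, and in all 194 by spot medians. By number of TT steps, the median levels averaged over the UV arrays were 2516 with 0, 2946 with 1, 4669.9 with 2 and 3972 with 3, so they did not keep growing with the number of TT steps.

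The brightest member was again RUNX_25_rev. It read 19076 and 21888 on the UV arrays and 1518 and 1136 on the non-UV arrays, and its mean was 20482 ± 1988.5 (SD, n = 2) against 1327 ± 270.0. The rise was 15.6-fold before centring, and 1.68 log2 units after it (SE 0.102, limma adjusted p = 3.34e-05). RUNX_43_rev, whose listed strand holds ATTA in front of ACCGCA and whose only TT step is that one, read 15648 and 15454 on the UV arrays and 1596.5 and 1242 on the non-UV arrays (effect 1.18). RUNX_25 read 13545 and 15206 on the UV arrays (effect 1.18). RUNX_94, an ATTA site with the CGCGGT core, read 14521 and 14218 (effect 0.90). RUNX_61 read 10408 and 15589, with bright spots on array 2 (spot medians 10011 and 11359.5; effect 0.90, and 0.64 by spot medians). It missed the threshold without 6-4PP UV array 2 (0.61, limma adjusted p = 0.0665) and without 6-4PP non-UV array 2 (0.79, limma adjusted p = 0.0603), and both RUNX_61 (0.95, limma adjusted p = 0.15) and RUNX_94 (0.61, limma adjusted p = 0.136) did so after a background correction by normexp. RUNX_94 turned to -0.07 with quantile normalization. For all 5 both UV arrays were far above both non-UV arrays, and the largest limma adjusted p was 0.0127.

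The 5 lowest 6-4PP effects belonged to RUNX_91 (-2.18), RUNX_81 (-2.11), RUNX_100 (-2.03), RUNX_83 (-1.98) and RUNX_85 (-1.96). RUNX_83, whose right element is GTTC on the complement, read 2011 and 2140.3 on the UV arrays and 2412 and 1179 on the non-UV arrays. RUNX_81 holds GTTA on the complement. It read 1854 and 1967.5 on the UV arrays and 1523 and 1895 on the non-UV arrays. In all 5 the UV and non-UV arrays overlapped. By spot medians the 5 effects were -1.72, -1.88, -1.56, -1.76 and -1.70, each past the threshold. The median 6-4PP effect of the 45 members without TT was -1.47 (means over spots). Before centring all 5 lay between 0.10 and 0.32, none with an adjusted p under 0.05.

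The antibodies ranked the sites differently, most of all where the thymines follow the core. Relative to the array medians, 151 members had the larger UV effect with the CPD antibody and 2 with the 6-4PP antibody, tested as an interaction in limma, beside 33.6% and 18.1% of all sequences. Centring moves this split: without it 50 members lay toward CPD and 4 toward 6-4PP, beside 6.57% and 27.9% of all sequences, and the median over all sequences went from 0.29 to -0.34 log2 units. With quantile normalization 0 members passed in limma (41 toward CPD at an unadjusted p under 0.05), but so did 0 of all 122095 sequences. Relative to the array medians both antibodies rose on 25 members, both fell on 73, CPD rose where 6-4PP fell on 43, and the reverse was seen on 1, RUNX_82. Such joint calls were not counted over all sequences, so these numbers cannot be read as a trait of the family.

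The 5 largest differences toward CPD were in sites with GTTA or GTTT after a core on the listed strand. RUNX_26_rev (GTTA) read 7799 and 7455 on the CPD UV arrays and 2365 and 2383 on the 6-4PP UV arrays, levels of the first kind far above the step-free sequences and of the second only somewhat above them. Its non-UV levels were 1163 and 1102 with CPD and 1463 and 1163 with 6-4PP, and the difference of the centred effects was 2.52 log2 units (SE 0.131, limma adjusted p = 0.000281; 1.89 without centring). RUNX_67_rev (GTTT) read 7402 and 6433.5 with CPD and 2424 and 2434 with 6-4PP after UV (difference 2.49). RUNX_4_rev (2.40), RUNX_63 (2.22) and RUNX_18_rev (2.20) all hold GTTA. RUNX_63 had 1 bright spot on a UV array, and its difference was 2.28 by spot medians. In each of the 5 the CPD UV arrays were high and the 6-4PP UV arrays low, without overlap.

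Only RUNX_82 and RUNX_78_rev passed the threshold toward 6-4PP. Both carry the core on the complement and a TC step after A on the listed strand, ATCA in RUNX_82 and ATCG in RUNX_78_rev. RUNX_82 read 9692 and 9009 on the 6-4PP UV arrays and 1518 and 1139.6 without UV, against 2705 and 2469.7 on the CPD UV arrays and 1228 and 1017 on the CPD non-UV arrays. The 6-4PP arrays separated widely and the CPD arrays less so, a difference of -0.99 (SE 0.126, limma adjusted p = 0.00124; -1.62 without centring). RUNX_78_rev read 6675 and 6331 on the 6-4PP UV arrays and 2334 and 2164.5 on the CPD UV arrays (difference -0.57, limma adjusted p = 0.0168). It missed the threshold without CPD non-UV array 1 (-0.49, limma adjusted p = 0.0646) and without 6-4PP UV array 1 (-0.53, limma adjusted p = 0.0553), and with a normexp correction neither passed (-1.54, limma adjusted p = 0.0744 for RUNX_82, -0.79, limma adjusted p = 0.35 for RUNX_78_rev). RUNX_82_rev, with the same duplex letters in the other orientation, read 6278.5 and 7319 with 6-4PP, below RUNX_82. With CPD it read 4334.5 and 4928, above both RUNX_82 and RUNX_78_rev.

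Among the 86 members with a single TT step, the levels were ordered by the letters around it and by its strand. With the step on the listed strand, the class medians on CPD UV arrays 1 and 2 were 8801 and 8085 for ATTG (9 members), 6829.9 and 6342 for GTTA (10), 4947 and 4620.0 for CTTG (3), 3756 and 3520.0 for GTTG (16) and 3575 and 3241 for GTTC (3). The member of ATTA, RUNX_43_rev, read 12227.5 and 10737. With the 6-4PP antibody the order was another one: ATTA 15648 and 15454, CTTG 9865 and 11741, ATTG 9632 and 9467, GTTC 2829.5 and 2885, GTTA 2564 and 2752 and GTTG 2489 and 2562. GTTA thus stood next to ATTG with CPD and near the other GTT classes with 6-4PP, while the medians of CTTG lay close to those of ATTG with 6-4PP and below those of GTTA with CPD. These are medians over sequences that share most of their letters, and neighbouring classes overlap: the GTTG members ran from 3137 to 4631 with CPD (mean of both UV arrays), which covers all of GTTC and part of CTTG. With 6-4PP the GTTC, GTTA and GTTG classes overlap as well, and RUNX_82_rev, of the GTTG class, stands above them at a mean of 6799.

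On the complement the same steps gave lower class medians with both antibodies. With CPD they were 5183 and 4789 for ATTG (10 members), 3199 and 3436 for CTTG (3), 2884 and 2731 for GTTA (10), 2299 and 2154 for GTTG (17) and 2009 and 1833 for GTTC (3), and RUNX_43, the member of ATTA, read 5718 and 5151. With 6-4PP RUNX_43 read 7136 and 6401, and the class medians were 5918 and 6846.5 for CTTG, 4623 and 4641 for ATTG and between 2255 and 2421 for the 3 GTT classes. One member of the GTTG class on the complement stood apart with 6-4PP, at a mean of 9351: it is RUNX_82, with its ATCA on the listed strand.

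The 45 members without TT lay close together with CPD, and with the 6-4PP antibody the classes with a TC step after A had the higher medians. The 10 members with neither TT nor TC read a median of 2217 and 2324 on the 6-4PP UV arrays. RUNX_51_rev, with ATCT on the listed strand, read 3868 and 4289.9, and RUNX_32, with ATCT and GTCG, read 4353 and 4283. The 2 members with ATCT alone on the complement had medians of 3072 and 3098. Single members of the groups overlap: the highest of the 10 without TC had a mean of 3510.0; this is RUNX_100_rev, with bright spots on the second arrays and spot medians of 2888 and 3027. Members whose only TC step was GTCG, GTCA or GTCT had class medians from 2130.1 to 2688, within the range of those without TC. Of these, RUNX_20_rev (GTCG) and RUNX_13 (GTCA) had means of 3370 and 3315, and neither held a bright spot on a UV array. Both lay above the 2 members with ATCT alone on the complement (means of 3044 and 3126). With CPD all these classes had medians between 1602 and 2049.

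Pairs of members that differ by 1 letter at the same place in the probe give the change that goes with each letter. Of 305 such pairs, 146 differed in UV effect with the CPD antibody, 108 with the 6-4PP antibody, and 82 differed between the antibodies (limma on the ratio within each array, adjusted over 53434 pairs on the array). That is 47.9%, 35.4% and 26.9% of the pairs, beside 29.6%, 40.3% and 28.2% over all pairs in either direction. A ratio within an array is not touched by centring. With quantile normalization 0 pairs passed in limma with either antibody, although 69 rose and 10 fell with CPD, and 30 rose and 15 fell with 6-4PP, at an unadjusted p under 0.05. Many pairs share a sequence, so they are not independent. Substitutions are written with the letter of the first sequence, the position and the letter of the second, read on the core strand. Positions are counted 5′ to 3′ from 1, the third letter before the core, so that the core fills positions 4 to 9. An effect is the second sequence minus the first, and a pair is written with the second sequence ahead of the word against.

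Turning the letter before the core from C to T adds TT steps, and its effect depended on the letter ahead of it. After A or G a CT step gives way to a TT step. After T a TC and a CT step give way to 2 TT steps, and after C a CC step gives way to a TT step while a CT step is kept. After A (ACTG to ATTG, C3T), all 28 pairs rose with both antibodies, with a median of 1.39 log2 units for CPD and 1.27 for 6-4PP. RUNX_36_rev (ATTG) read 8701 and 7911 on the CPD UV arrays and 8804 and 9875 on the 6-4PP UV arrays, and RUNX_54_rev (ACTG) read 2065 and 2219 with CPD and 2615 and 3145 with 6-4PP. RUNX_36_rev was far the higher on all 4 UV arrays. The effect was 1.97 (SE 0.11, limma adjusted p = 5.1e-05) with CPD and 1.84 (SE 0.11, limma adjusted p = 7.2e-05) with 6-4PP. After G (GCTG to GTTG), 7 of 8 pairs rose with CPD (median 0.76) and 1 with 6-4PP (median 0.10), and 4 passed the test of the difference between antibodies, toward CPD. After T (TCTG to TTTG), all 8 rose with CPD (median 1.69), while with 6-4PP 4 of 4 on the listed strand rose and 0 of 4 on the complement, and 7 of 8 differed between antibodies. After C (CCTG to CTTG), 3 of 4 rose with CPD and 3 with 6-4PP.

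Which purine stood ahead of the TT mattered too, with no change in the number of steps. In 10 pairs GTTG became ATTG (G2A), and all 10 rose with both antibodies. The median was 1.27 for CPD and 1.81 for 6-4PP with the core on the listed strand (5 pairs), and 0.93 and 1.05 on the complement (5 pairs). RUNX_36_rev (ATTG, levels above) was set against RUNX_28_rev (GTTG), which read 3678 and 3334 with CPD and 2299 and 2294 with 6-4PP after UV. The effect was 1.28 (SE 0.1, limma adjusted p = 0.000157) with CPD and 2.05 (SE 0.1, limma adjusted p = 5.35e-05) with 6-4PP. In 4 of the 10 pairs the 6-4PP effect was the larger by the test of the difference, in 0 the CPD effect. The same letters followed by C, without a TT step (G2A, GCTG to ACTG), moved in 1 of 8 pairs with 6-4PP and in 0 with CPD (1 at an unadjusted p under 0.05).

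In some contexts a substitution moved the antibodies in opposite directions. Where ACTTG became ATTTG (C2T, 10 pairs), 7 rose and 0 fell with CPD (median 0.75), while 7 fell and 0 rose with 6-4PP (median -0.69), and 9 of 10 passed the test of the difference. RUNX_84 (TTTG) read 8705 and 8271 with CPD and 5948 and 6854 with 6-4PP after UV. RUNX_48_rev (CTTG) read 5293 and 4620.0 with CPD and 11512 and 11741 with 6-4PP. RUNX_84 was the higher on both CPD arrays and the lower on both 6-4PP arrays. The effects were 0.79 (SE 0.103, limma adjusted p = 0.00145) with CPD and -0.85 (SE 0.103, limma adjusted p = 0.000907) with 6-4PP, and the difference was 1.64 (SE 0.146, limma adjusted p = 0.00102). Smaller classes did so as well. The 2 pairs with GATG to GTTG (A3T) rose with CPD (0.44 and 0.71), and 1 of them fell with 6-4PP (-1.45). The 2 pairs with TAC to TTC behind the core (A11T) fell with CPD (-0.42 and -0.37), and 1 of them rose with 6-4PP (0.33). The difference passed in all 4 of these pairs.

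Behind the core, turning TC into TT moved the CPD signal and hardly the 6-4PP signal. Of 52 pairs with C10T, 34 rose with CPD and 0 fell, with medians of 1.00 on the listed strand (22 of 25 rose) and 0.38 on the complement (12 of 27). With 6-4PP 1 rose and 1 fell, and the median was 0.03. The difference between antibodies passed in 20 pairs, toward CPD in each. By the letter that follows, 12 of 14 pairs rose with CPD before A (GTCA to GTTA, median 0.75), 4 of 6 before T (0.59) and 18 of 32 before G (0.42). The largest was RUNX_26_rev (GTTA, levels given above) against RUNX_73_rev (GTCA), which read 1888 and 1824 with CPD and 2623 and 2543 with 6-4PP after UV. The effect was 2.40 (SE 0.22, limma adjusted p = 0.000294) with CPD, where the pair does not overlap, and 0.12 (SE 0.22, limma adjusted p = 0.698) with 6-4PP, where RUNX_73_rev was slightly the higher on both UV arrays. By spot medians, which set aside the bright spots of RUNX_73_rev, the effects were 2.21 and -0.04. One letter further on, C11T (GTTCG to GTTTG) raised CPD in 4 of 8 pairs and 6-4PP in 0 (1 at an unadjusted p under 0.05).

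Some substitutions that removed a TC step after A lowered the 6-4PP signal, and others did not. The A of GATG pairs with T on the other strand and there completes ATC, and replacing it by C (A3C) removed that step and added a CT step on the core strand. RUNX_27_rev (A3C) read 2105.5 and 2395 with 6-4PP and 2103 and 2047 with CPD after UV. Against RUNX_78_rev (levels above) the effect was -1.46 (SE 0.126, limma adjusted p = 0.000223) with 6-4PP and -0.08 (SE 0.126, limma adjusted p = 0.677) with CPD. Of the 2 pairs with A3C at this site both fell with 6-4PP and 0 with CPD (0 at an unadjusted p under 0.05), and both differed between antibodies. G11T, which turns ATCA on the other strand into ATAA and adds a TT behind the core, gave a larger fall. RUNX_67 read 2200.0 and 2429.7 with 6-4PP, against 9692 and 9009 for RUNX_82, an effect of -2.30 (SE 0.262, limma adjusted p = 0.000703). With CPD RUNX_67 read 3342.5 and 2903 and RUNX_82 2705 and 2469.7, an effect of 0.03 (SE 0.262, limma adjusted p = 0.949). RUNX_67 held 2 bright spots, and by spot medians the effects were -2.15 with 6-4PP and 0.26 with CPD. A3T at the GATG site, which removes the same ATC and adds a TT on the core strand, gave -1.45 with 6-4PP for RUNX_14 against RUNX_78_rev, which passed, and -0.27 for RUNX_14_rev against RUNX_78, which did not. Where the C of ATC was turned into T, so that a TT took the place of the TC, no fall passed. RUNX_44_rev against RUNX_78_rev (G2A, ATCG to ATTG) rose with 6-4PP, with an effect of 0.89 (SE 0.136, limma adjusted p = 0.00259), while RUNX_44 against RUNX_78 gave -0.32 and did not pass. The 2 pairs with G11A (ATCA to ATTA) gave 0.23 and -0.17 with 6-4PP, and neither passed. A3C in CATG, which adds a CC and a CT step (CCTG), raised 6-4PP in 3 of 4 pairs (median 0.43) and CPD in 0 (0 at an unadjusted p under 0.05). A3C in TATG, which adds a TC and a CT step (TCTG), raised 6-4PP in 2 of 4 pairs and CPD in 0 (0 at an unadjusted p under 0.05).

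Some of the largest changes went with the loss of a TT step on the strand opposite the core, and others with a gain of TT steps. RUNX_43_rev (ATTA on the listed strand) read 12227.5 and 10737 with CPD and 15648 and 15454 with 6-4PP after UV. RUNX_13_rev, in which A10C turns ATTA into ATGA, read 1761 and 1678 with CPD and 2348 and 2209 with 6-4PP, near the step-free level. The effect was -2.81 (SE 0.124, limma adjusted p = 3.2e-05) with CPD and -2.76 (SE 0.124, limma adjusted p = 4.97e-05) with 6-4PP. A10T in the same site (RUNX_9 against RUNX_43_rev) gave -2.58 with 6-4PP (-2.81 by spot medians), and A11T (RUNX_67 against RUNX_50) gave -2.53 (-2.48). Both exchange a TT on the listed strand for one behind the core on the complement. RUNX_38 (TTTG) against RUNX_91 (TATG, A3T) had the highest CPD effect, 3.01 (SE 0.45, limma adjusted p = 0.00273): RUNX_38 read 8974 and 7639 after UV and RUNX_91 1554 and 1455, and with the bright non-UV spots of RUNX_91 set aside by spot medians the effect was 2.48. G12A turned ACTG into ATTG opposite the core in RUNX_61 against RUNX_79 and gave 2.60 with CPD (2.56 by spot medians). For A3C, RUNX_34_rev against RUNX_66_rev gave -2.63 with CPD, and RUNX_33_rev against RUNX_44_rev gave -2.46 with 6-4PP, both by turning CATT into CAGT on the listed strand.

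The letter that separates the 2 main RUNX cores changed neither signal beyond the test. The 27 pairs of TGCGGT against TGTGGT (C6T), which adds and removes no dipyrimidine step, had 0 calls with CPD (1 at an unadjusted p under 0.05), 0 with 6-4PP (2 unadjusted) and 0 for the difference (2 unadjusted) in limma. Their effects ran from -0.42 to 0.20 log2 units with CPD (median 0.02) and from -0.47 to 0.26 with 6-4PP (median -0.04). RUNX_31_rev (TGTGGT) read 12687 and 13280.0 with CPD after UV and RUNX_6_rev (TGCGGT) 13817 and 12784, and their arrays overlapped. Among other changes without a step, G3A (CGTG to CATG, 14 pairs) gave 0 calls with CPD and 0 with 6-4PP (0 and 1 unadjusted). G10A (14 pairs) gave 1 higher and 1 lower with CPD and 0 calls with 6-4PP (0 unadjusted). C4T, the step from CGCGGT to TGCGGT (8 pairs), gave 1 call with CPD and 1 with 6-4PP. G11A behind a TT (GTTG to GTTA, 10 pairs) moved more with CPD, where 4 rose and 0 fell. Of these, 3 of 5 rose with the core on the listed strand (median 0.73) and 1 of 5 on the complement (0.16). With 6-4PP it gave 0 calls (1 unadjusted), and 2 pairs differed between antibodies, toward CPD. The higher class median of TGTGGT members with CPD (5727, 27 members, against 3318 for 159 members with TGCGGT) goes with the letters beside the core: the TGTGGT members all hold at least 1 TT step.

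Many sites read differently in their 2 orientations, with CPD more often than over all such pairs of the array and with 6-4PP about as often. Of the 100 site names, 90 pair with a reversed version that shares at least 11 letters as the reverse complement, and all 90 pairs hold the same number of each step over both strands. In 55 pairs the sequence with the core on the listed strand had the larger UV effect with CPD and in 5 the smaller, and with 6-4PP the numbers were 47 and 10 (limma on the ratio within each array). That is 66.7% and 63.3% of the pairs, beside 41.6% and 64.5% of the 2883 such pairs on the array, in either direction. The antibodies differed in 21 pairs (23.3%, beside 26%). The median effect was 0.67 log2 units with CPD and 0.31 with 6-4PP. Turning a site also moves its steps along the probe and changes its outer flanks, so strand and position cannot be told apart here. With quantile normalization 0 pairs passed in limma, while 14 with CPD and 10 with 6-4PP were higher at an unadjusted p under 0.05.

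With CPD the direction went with the strand that holds the TT steps. Of 37 pairs with 1 TT on the core strand and 0 on the other, 31 were higher with CPD when the core strand was the listed one and 0 were lower. With 2 or 3 TT steps on the core strand this held in 17 of 18 and 5 of 5 pairs. With 6-4PP 19 of the 37 pairs were higher, 3 were lower and 15 did not pass, and with 2 or 3 TT steps 16 of 18 and 4 of 5 were higher. The 3 pairs with their TT on the other strand were all lower, with both antibodies. Without any TT, 2 of 23 pairs were higher with CPD and 8 with 6-4PP. RUNX_44_rev, with ATTG on its listed strand opposite the core, read 12152.5 and 11788 with CPD and 10607 and 12149.9 with 6-4PP after UV, and RUNX_44 read 5454 and 4563 with CPD and 3999 and 3678 with 6-4PP. RUNX_44_rev was the higher on all 4 UV arrays, and the effect of listing the core strand was -1.72 (SE 0.381, limma adjusted p = 0.0098) with CPD and -1.95 (SE 0.381, limma adjusted p = 0.00382) with 6-4PP. RUNX_44 held 2 bright spots on non-UV arrays, and by spot medians the effects were -1.43 and -1.71. Without CPD UV array 2 the CPD effect missed the threshold (-1.61, limma adjusted p = 0.0564). The other large pairs were RUNX_66 (-1.81 with CPD and -1.48 with 6-4PP), RUNX_45 (1.42 and 1.47, and 1.30 and 1.15 by spot medians), RUNX_81 (1.58 with CPD, 1.19 by spot medians) and RUNX_95 (1.48 with 6-4PP).

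Of the 19 pairs in which the signed effect of listing the core strand was larger with CPD than with 6-4PP, 18 held thymines behind the core: 7 of 10 with GTTA, 7 of 23 with GTTG and 4 of 7 with GTTT. In most of the 19 this was a rise with CPD, but in RUNX_94 (-0.04 with CPD, -0.90 with 6-4PP) and RUNX_50 (-0.22 and -0.90) the fall with 6-4PP passed and the CPD effect did not, and in RUNX_78 the effects were 0.65 with CPD and -0.74 with 6-4PP. Among 10 pairs with GTTA, 7 were higher on the listed strand with CPD (median 1.21), while with 6-4PP 4 were higher and 3 lower (median 0.20), and 7 passed the test of the difference. RUNX_26_rev, with GTTA on the listed strand, read 7799 and 7455 with CPD after UV, and RUNX_26, with GTTA on the complement, read 2863 and 2871. With 6-4PP RUNX_26_rev read 2365 and 2383 and RUNX_26 1951 and 1907. RUNX_26_rev was the higher on all 4 UV arrays, with an effect of 1.40 (SE 0.0894, limma adjusted p = 4.38e-05); with 6-4PP the effect was 0.44 (SE 0.0894, limma adjusted p = 0.00475). Among 16 pairs with ATTG ahead of the core, 15 were higher with CPD and 15 with 6-4PP when that strand was listed. The exception was RUNX_25, which holds ATTA on the other strand.

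Where TT steps lay on both sides of a TGCGGT core on the listed strand, the CPD signal was close to the sum of what each side gave alone. For 7 combinations of elements on each strand, the level with both (spot medians) was set against the level with the left element alone plus that with the right element alone, less the step-free level. The ratio of the observed level to this sum ran from 0.844 to 1.16 on CPD UV array 1 and from 0.887 to 1.03 on array 2 with the core strand listed. On the complement the lowest and highest ratios over both CPD UV arrays were 0.769 and 1.16. There GTTC and GTTG alone read 1933 and 2243 on CPD UV array 1, where the step-free level was 1617. Ratios with these right elements therefore hardly show whether the sides add. On the complement TTTG with GTTG read 4524 on CPD UV array 1, below TTTG alone (5254), and 4761.5 on array 2, above it (4593). RUNX_6_rev, which joins ATTG with GTTA, had a spot median of 14602, where the sum was 14190.0, on CPD UV array 1, and 13129, where the sum was 12777, on array 2. With 6-4PP the right elements alone lay near the step-free level (GTTG 2309 and 2356 on the listed strand), so the same ratio cannot show whether the sides add. On 6-4PP UV array 2 all 4 combinations with ATTG on the listed strand, the highest of them 9671, read below ATTG alone (10022). On 6-4PP UV array 1 the same 4, the lowest of them 8904, read above ATTG alone (8452), so the arrays disagreed in direction. Most combinations rest on 1 sequence, so the ratios are a description without a test.

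Set beside other sequences of the array with equally many steps, the family was brighter with CPD and dimmer with 6-4PP. With 3 steps the family's median on CPD UV arrays 1 and 2 was 4832 and 4413 (90 members), and that of 20488 other sequences was 2651 and 2485. With 6-4PP the medians were 3408 and 3563 for the family and 4390.2 and 4348 for the others. With 2 and 4 steps the order was the same on all 4 UV arrays. At equal numbers of TT steps (among sequences with 2 to 4 steps) the CPD order turned. With 1 TT the family's medians were 3789 and 3520.0, and those of 18679 others 4476 and 4044. With 6-4PP and 1 TT they were 2924 and 2859 against 5888 and 5799.5. These medians describe the sequences and carry no test.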

How the data were processed

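Antibody staining of 60-base DNA probes was read on 8 arrays. Per the file headers, the deposited intensity columns hold, for each spot, a raw intensity, a normalised one and an adjusted one. From the values, the normalised intensity equalled the raw one on each array, and the adjusted intensity was the normalised one times a constant of the array over the median of the spot's neighbourhood, with no background taken off. Scanner and software were not given in the sources used here. Between 96 and 340 of 180880 spots per array stood at the ceiling of 65535 and were kept. The number of arrays limits the precision.

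Adjusted intensities were put on a log2 scale, averaged over the spots of a sequence and centred on each array's median. Effects of UV per antibody, and their difference, were fitted with limma 3.58.1 in R 4.3.3 (lmFit and eBayes, 4 groups of 2 arrays, Benjamini-Hochberg over 122095 sequences, threshold 0.05). Python 3.11.15, numpy 2.4.6 and pandas 2.3.3 made the tables. Pairs of sequences were fitted on their log2 ratio within each array, without centring. Orientation pairs were to be exact reverse complements ahead of the shared end. As 0 pairs met this, names with and without the reversed mark that share at least 11 letters as reverse complements were used, a choice made after seeing the data. The fits were tested on simulated data.

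Named members are, per antibody, the 5 highest and 5 lowest centred effects past the threshold whose centred values on the UV arrays lie on 1 side of those on the non-UV arrays (overlap in the report is that of levels before centring), and the 5 largest differences each way. Named pairs are the 4 largest effects per antibody; further pairs and members are examples chosen after their values were seen. The members and lists were chosen with earlier results of these data known. Alternatives changed the intensity column, centring, normalization, offset, background, saturated and dim spots, spot summary, arrays fitted, prior, block and arrays left out.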

Additional observations from a re-analysis of the deposited data

Results flagged for a closer look

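Relative to the array medians, the UV effect differed between the antibodies in 153 of the 194 RUNX sequences, by the test of the difference itself. That is 78.9%, beside 51.7% of all sequences. Without centring 50 passed toward CPD and 4 toward 6-4PP, beside 6.57% and 27.9% of all sequences. Among named members the CPD effect exceeded the 6-4PP effect by 2.52 log2 units in RUNX_26_rev, 2.49 in RUNX_67_rev, 2.40 in RUNX_4_rev, 2.22 in RUNX_63 and 2.20 in RUNX_18_rev. The difference had the other sign in RUNX_82 (-0.99) and RUNX_78_rev (-0.57).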

How the results depend on the processing

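Of 43 single named values, recomputed under each alternative that could hold them, 778 values kept their direction and their side of the threshold, 47 kept only the direction and 10 turned. Without centring the CPD effect turned to 0.14 for RUNX_100, 0.35 for RUNX_73_rev, 0.31 for RUNX_46 and 0.33 for RUNX_88. The 6-4PP effect turned to 0.25 for RUNX_100, 0.10 for RUNX_91, 0.17 for RUNX_81, 0.32 for RUNX_85 and 0.30 for RUNX_83, since these falls are relative to a median that itself rises with UV. With quantile normalization RUNX_94 turned to -0.07 with 6-4PP, and the cause was not tested.

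Counts of members past the threshold, higher and lower, moved most with the scaling. Without centring they were 185 and 0 with CPD, 187 and 0 with 6-4PP, and 50 and 4 for the difference between antibodies. Quantile normalization gave 4 and 3, 1 and 12, and 0 and 0 for the members, and 0 and 0 differences over all 122095 sequences. It left 0 calls in limma in either direction, for either antibody and for their difference, among the 1-base pairs and among the orientation pairs, where 69 and 14 were higher with CPD at an unadjusted p under 0.05. Quantile normalization forces UV and non-UV arrays to the same distribution. A normexp background correction left 7 members higher with 6-4PP, and 81 toward CPD and 0 toward 6-4PP for the difference. Among pairs it left 26 and 0 1-base differences between antibodies, 0 and 0 orientation differences and 4 orientation pairs lower with 6-4PP.

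Leaving out the dimmest 25 percent of sequences kept fewer members and pairs in the test. It left 3 members lower with CPD, 63 lower with 6-4PP and 96 toward CPD. It left 44 and 9 1-base pairs with CPD, 26 and 19 with 6-4PP and 24 toward CPD, and of the orientation pairs 30 higher with CPD, 24 higher with 6-4PP and 8 toward CPD. The 2 orientation pairs toward 6-4PP became 0 with the unadjusted intensity and 8 with spot medians. An offset of 100, saturated spots left out, a trended robust prior and, where it could be run, the arrays of 1 antibody alone moved no count by over 1.5 times.

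Without each array in turn, members were called higher in 75 to 83 and lower in 66 to 74 cases with CPD, in 21 to 26 and 142 to 148 with 6-4PP, and in 134 to 148 and 1 to 2 for the difference. For 1-base pairs the ranges were 107 to 130 and 12 to 16 with CPD, 66 to 77 and 22 to 32 with 6-4PP and 49 to 64 and 6 to 16 for the difference. Its low end, toward 6-4PP, came without CPD non-UV array 2. For orientation pairs they were 47 to 57 and 3 to 6, 32 to 44 and 8 to 10, and 14 to 20 and 0 to 4. The lone array left in a group is assumed to vary like the other groups.

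The labels give every group array numbers 1 and 2. Deviations of same-numbered arrays correlated at 0.765 between the antibodies on non-UV arrays and at 0.708 on UV arrays, but near 0 between UV and non-UV arrays, so the number alone was not taken as a pairing. The main fit thus took all arrays as independent, although same-numbered arrays of the 2 antibodies deviated together within each condition. The UV arrays of the 2 antibodies are therefore not independent readings. With the replicate number as a block, 83 members were higher and 75 lower with CPD, 26 and 150 with 6-4PP, and 150 and 2 for the difference, and no count of pairs moved by over 1.5 times. A block by number within UV and within non-UV arrays, chosen after seeing the data, gave 102 1-base pairs toward CPD, 9 orientation pairs lower with CPD, and 32 and 6 orientation differences. With 2 arrays a group, and no background taken off, levels near the step-free sequences cannot be ranked.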
